A study of Mus musculus with 8 samples.

Results

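Where the spans of 2 protein-coding genes on opposite strands run into each other, the same bases belong to both genes, and a histone mark laid down in 1 of them also lies in the other. These shared intervals were found in the GENCODE M21 annotation of the mouse genome (build mm10, chromosomes 1 to 19), taking every stretch of at least 200 bases covered by a plus-strand and a minus-strand span. There were 1640 such intervals from 2933 of the 20807 protein-coding genes. They fell into 658 tail-to-tail intervals, in which the 3′ ends of both genes overlap, 457 head-to-head intervals, in which the 5′ ends overlap, and 525 nested intervals, in which 1 gene lies wholly inside the span of the other. The median length was 2232 bases tail-to-tail, 640 bases head-to-head and 5374 bases nested, and the longest interval had 220034 bases. A gene could take part in more than 1 pair, as 233 genes did, and 128 intervals overlapped another interval, so the intervals are not independent of each other. In 393 pairs at least 1 gene was a predicted model, and in 102 at least 1 gene had a readthrough transcript.

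H3K36me3, trimethylation of lysine 36 of histone H3, was measured by ChIP-seq in mouse embryonic fibroblasts (MEFs) from an E13.5 embryo. The labels give a single clone for all samples, and every library, controls included, came from cells in which doxycycline can switch on the Yamanaka factors Oct4, Sox2, Klf4 and c-Myc (OSKM). The study asked how vitamin B12 affects chromatin while these factors are switched on. The 4 conditions were MEF (no doxycycline, no added B12), MEF B12 (2 µM B12 added), OSKM (1 µg/ml doxycycline) and OSKM B12 (doxycycline and 2 µM B12), each kept for 72 h in iPSC medium. The doxycycline dose is that of the labels, and the study's methods give it in mg where the labels have µg. There was 1 H3K36me3 library and 1 input for each condition, so no difference below has a replicate check, and no test between conditions was possible. The protocol text in the labels names another residue of histone H3 for the antibody, while the immunoprecipitation field gives lysine 36.

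H3K36me3 is deposited by SETD2, a methyltransferase that travels with elongating RNA polymerase II. In active genes the mark is therefore scarce at the promoter, builds up through the gene body and is strongest toward the 3′ end. It carries no strand, so in a shared interval the chromatin alone does not say which gene's transcription it follows.

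The 3′ ends of many genes hold a signal near which RNA is cut and polyadenylated. AATAAA or ATTAAA lay in the last 40 bases of 839 of 1306 genes in tail-to-tail pairs (64.2%), against 12094 of 17283 genes with no opposite-strand overlap (70.0%) and 14485 of all 20807 genes (69.6%). Both ends had a hexamer in 265 of the 658 pairs, 1 end in 315 and neither in 78. The stretches below are shown because the pairs are described further on and both ends hold a hexamer, which is in capitals. Each is written 5′ to 3′ on the strand of its gene, in mm10.
Ercc1, chr7:19356488-19356517, plus strand: gcccagtgtcacAATAAAgaattttccatg
Cd3eap, chr7:19356014-19356043, minus strand: ctcagctacattaagtaAATAAAacaaacc
Ptbp1, chr10:79864739-79864768, plus strand: tggtgtactcacATTAAAtcttaaaaaaaa
Plppr3, chr10:79860479-79860508, minus strand: gcttaccaggccATTAAAttcaatctacta
Lipt1, chr1:37876197-37876226, plus strand: atttctcctctcATTAAActtcagagaaga
Mitd1, chr1:37874808-37874837, minus strand: ataagttaattcAATAAAaaaagaaaatca
Rabgap1, chr2:37566415-37566444, plus strand: ATTAAAtattttggtacaaacagcattgct
Strbp, chr2:37483228-37483257, minus strand: aaacatgcaatcatAATAAAtatataaaaa

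Head-to-head intervals differed in base composition from the rest of the same genes. Their GC content averaged 59.8%, against 46.2% in the non-shared part, and they held 6.61 CpG per 100 bases against 1.38, with CpG density higher in the shared interval in 407 of 457 pairs. Tail-to-tail intervals had 1.28 CpG per 100 bases against 1.42, and nested intervals 1.98 against 1.21. The 30 bases richest in CpG are shown for a head-to-head interval described below, on the plus strand of mm10 with each CG in capitals, to show what a CpG-rich stretch of such an interval looks like.
Psmd13/Sirt3, chr7:140882067-140882096: caaacCGggagatttcatCGttttaCGcCG

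The H3K36me3 libraries held 29046913 to 33399267 tags after filtering, and the authors' lists held 64364 to 67234 broad peaks on chromosomes 1 to 19. The OSKM library had the most tags but the shortest peaks, with a mean of 1427 bases against 2319 in MEF, 2512 in MEF B12 and 2418 in OSKM B12. Its peaks covered 91.8 Mb against 150.5 Mb in MEF, 162.6 Mb in MEF B12 and 162.6 Mb in OSKM B12, and the covered shares below were not scaled to these totals. Of 9 fibroblast markers, 7 or 8 had at least 10% of their span in peaks in each library, with Col1a1 and Col3a1 among them, while 5 pluripotency markers, 4 epithelial markers and 3 endothelial markers reached 10% in none. Of the fibroblast markers, Twist1 was at 0 in all 4 libraries and S100a4 passed 10% in MEF B12 only. Among 3 blood markers Cd68 alone passed 10%, at 76.0% to 100% of its span, and Ptprc was at 0 in all 4 libraries. Among 3 neural markers Tubb3 passed 10% in the 3 libraries other than OSKM. In bulk chromatin, fewer cells carrying the mark and less mark per cell cannot be told apart.

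Tail-to-tail intervals were the most heavily covered. On average 63.2% of their bases lay in peaks in MEF and 66.4% in MEF B12, next to 48.8% in OSKM and 66.1% in OSKM B12. The non-shared parts of the same genes were covered over 32.1%, 33.9%, 22.4% and 34.4%. Here and below, 4 values without names stand for MEF, MEF B12, OSKM and OSKM B12, in that order. The shared interval was the more covered part in 480 of 658 pairs in MEF, the less covered in 113 and equal in 65. At least 50% of the interval was covered in 428 intervals in MEF (65.0%, 95% Wilson interval 61.3% to 68.6%) and 446 in MEF B12 (67.8%), beside 324 in OSKM (49.2%) and 445 in OSKM B12 (67.6%). Over all protein-coding gene spans the same threshold was met by 22% in MEF and 24% in MEF B12, against 11.7% in OSKM and 24.3% in OSKM B12. Wilson intervals cover counting error only. No base was in a peak in any library in 107 tail-to-tail intervals. Around the 200-base minimum, the 36 tail-to-tail intervals of 200 to 299 bases were covered over 72.6% in MEF and the 60 of 100 to 199 bases, left out by the rule, over 73.5%. The 79 and 78 head-to-head intervals of these lengths were at 0 in MEF.

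Density, the peak pileup per 1000000 tags summed over the bases in peaks and divided by the length, averaged 0.430 in the shared intervals and 0.208 in the non-shared parts in MEF. It was 0.510 and 0.247 in MEF B12, 0.261 and 0.115 in OSKM, and 0.537 and 0.264 in OSKM B12. Within peaks the pileup per 1000000 tags differed less, at 0.639 for shared and 0.603 for non-shared bases in MEF. MACS2 gives 1 pileup for a whole broad peak, so parts of a pair under the same peak have the same pileup, and the density differed mainly through how many bases were in peaks.

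The excess was smaller beside bases at a like position in the gene. Flanks of up to the length of the interval were taken directly beside it in each gene and cut where the gene ended. Against these flanks the tail-to-tail excess in MEF was 7.41 percentage points in place of 31.1. Of the 658 pairs, 529 had room for flanks of full length. Across these, MEF coverage rose from 54.4% at the outer end of the plus-strand gene's flank to 65.2% at the edge of the interval. It stayed between 65.0% and 66.9% across the interval and fell to 56.2% at the outer end of the other flank. OSKM ran from 42.5% through 49.7% to 53.2% in the interval and back to 41.3%.

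**Figure D1:**
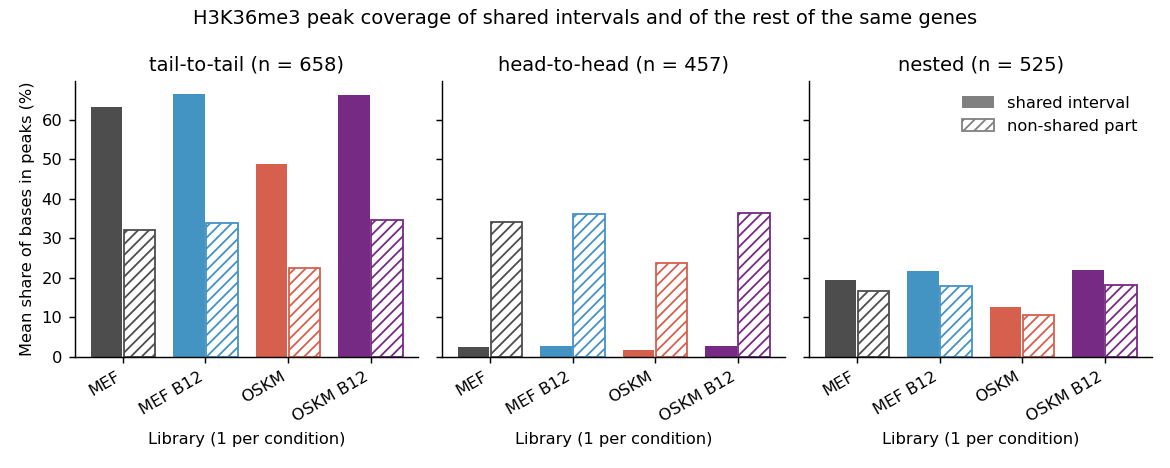
Mean share of bases in H3K36me3 peaks (y axis, %) for the shared intervals (filled bars) and the non-shared parts of the same genes (hatched bars) in the 4 libraries, by class, with 1 library per condition and no error bars. Tail-to-tail intervals reached 63.2% in MEF and 48.8% in OSKM, above their non-shared parts, while head-to-head intervals stayed under 3% in all 4 libraries.

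Since the mark tends to rise toward the 3′ end of active genes, genes were also compared at the same position. The last 2232 bases of genes in tail-to-tail pairs were covered over 64.1% in MEF (1218 genes at least 2 windows long), and those of genes with no opposite-strand overlap over 33.8% (14482 genes). The genes were then split by how much of the rest of the gene was covered. Among genes whose rest was at least 50% covered in MEF, the last window was at least 50% covered in 372 of 427 tail-to-tail genes (87.1%, 95% Wilson interval 83.6% to 90.0%) and in 2538 of 2884 genes with no overlap (88.0%, 86.8% to 89.1%). Among genes whose rest was 10% to 50% covered, it was so in 309 of 400 (77.2%, 72.9% to 81.1%) and in 2044 of 3182 (64.2%, 62.6% to 65.9%). Among genes whose rest was under 10% covered, it was so in 129 of 391 tail-to-tail genes (33.0%, 28.5% to 37.8%) and in 456 of 8416 genes with no overlap (5.42%, 4.95% to 5.92%). For these weakly covered genes MEF B12 gave 36.8% against 6.31%, OSKM gave 21.2% against 2.34%, and OSKM B12 gave 35.0% against 6.36%. In MEF the Wilson intervals of the 2 kinds of gene overlapped where the rest was at least 50% covered and lay apart in both other sets. The last windows of both genes of a pair hold shared bases, so a covered interval can count for both genes. The Wilson intervals take the windows as independent and are too narrow to that extent, so their separation is a description and not a test.

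Among the 391 weakly covered tail-to-tail genes the last window was more often covered beside a covered partner. Where the partner's own part was at least 50% covered in MEF, the last window of the weak gene was at least 50% covered in 75 of 99 genes in MEF (75.8%, 66.5% to 83.1%) and 79 in MEF B12, next to 60 in OSKM and 76 in OSKM B12. Where the partner was 10% to 50% covered, 45 of 95 genes passed in MEF (47.4%) and 54 in MEF B12, beside 21 in OSKM and 54 in OSKM B12. Where the partner was under 10% covered, 9 of 197 genes passed in MEF (4.57%, 2.42% to 8.45%) and 11 in MEF B12, against 2 in OSKM and 7 in OSKM B12, close to the 5.42% of weakly covered genes with no overlap. The partner's own part lies outside the window, but it often lies under the same peak. Where both genes of a pair were weak, both can be among the 197.

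**Figure D2:**
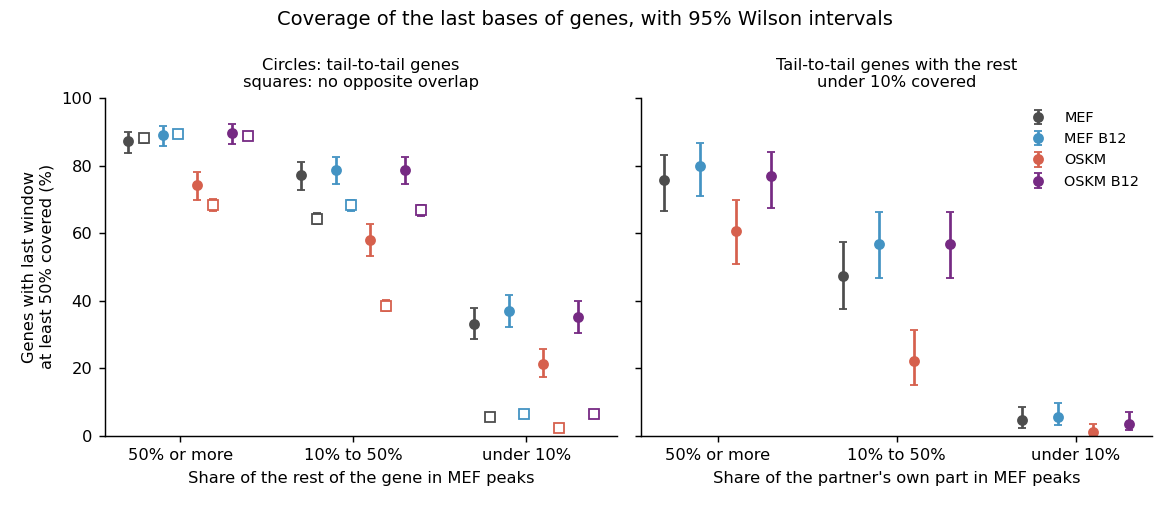
Share of genes (y axis, %) whose last 2232 bases were at least 50% in peaks, with 95% Wilson intervals, in the 4 libraries (colours). Left, tail-to-tail genes (circles) and genes with no opposite-strand overlap (squares) by the coverage of the rest of the gene in MEF; right, the 391 tail-to-tail genes with the rest under 10% covered, by the coverage of the partner, where the MEF share falls from 75.8% through 47.4% to 4.57%.

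Pairs were also sorted by which of their genes were marked. A gene was taken as marked where at least 50% of its own, non-shared part was covered in MEF, and in 273 tail-to-tail pairs 1 gene was marked and the other was not. In these pairs the marked gene's own part was covered over 69.3% on average, the other gene's over 18.1%, and the shared interval over 80.1%, with 82.9%, 65.0% and 83.6% in the other 3 libraries. The peak at the marked gene's edge of the interval ran right through and ended beyond the far edge, in the other gene's own part, in 158 pairs in MEF (57.9%) and 177 in MEF B12, next to 98 in OSKM and 172 in OSKM B12. It stopped inside the interval in 79, 66, 101 and 72 pairs, and the edge itself lay outside any peak in 36, 30, 74 and 29. In the 224 such pairs with room for flanks, MEF coverage went from 88.5% just before the interval to 79.3% at its far end and to 49.2% at the outer end of the other gene's flank.

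In 77 tail-to-tail pairs both genes were marked, and their intervals were covered over 92.4% in MEF and 95.5% in MEF B12, beside 79.7% in OSKM and 96.0% in OSKM B12. The density of these intervals exceeded that of the denser own part in 70 of 77 pairs in MEF, with a median ratio of 1.39. It exceeded the sum of the densities of both own parts in 5 of 77 in MEF and 7 in MEF B12, against 24 in OSKM and 5 in OSKM B12. The median ratio to the sum was 0.775, 0.758, 0.892 and 0.747. The split itself made the sum high in MEF, where the own parts were covered over 74.4% and 61.4%, against 57.9% and 44.7% in OSKM. An interval cannot be more than wholly covered, so the sum was harder to exceed in MEF than in OSKM. These counts and ratios therefore do not compare the libraries on like terms. The own parts here are the whole non-shared parts of the genes, not flanks of equal length. Where neither gene was marked (308 pairs), the interval was covered over 40.9% in MEF and 44.5% in MEF B12, next to 26.8% in OSKM and 43.2% in OSKM B12. The split used MEF coverage of the non-shared parts, which often share a peak with the interval.

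A tail-to-tail interval lay inside a single peak that reached past both of its ends in 274 of 658 pairs in MEF (41.6%, 37.9% to 45.4%) and 309 in MEF B12 (47.0%), beside 158 in OSKM and 294 in OSKM B12 (44.7%). Among the 274 in MEF, 154 kept such a peak in OSKM and 120 did not, and 4 other intervals gained one. The 120 intervals were longer, with a median of 1522 bases against 970 in the 154. They still had 62.9% of their bases in OSKM peaks on average, 87 of them were at least 50% covered there and 17 were at 0. In OSKM B12, 101 of the 120 and 152 of the 154 lay inside 1 peak, and in MEF B12 108 and 153. In all 4 libraries together 151 intervals did. OSKM peaks were shorter over the whole genome, as given above, and the part of this in the count was not tested.

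Long overlaps were less covered, and so were the non-shared parts of their genes. Tail-to-tail intervals of 200 to 499 bases had 67.6% of their bases in peaks in MEF, and those of 10000 bases or more had 42.0%, with 35.5% and 20.9% in the non-shared parts. In 603 of the 658 pairs (91.6%) exons of both genes overlapped, and those intervals were covered over 65.2% in MEF, against 41.2% in the other 55, whose median length was 8156 bases. The non-shared parts of these genes were covered over 33.3% and 18.9%.

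**Figure D3:**
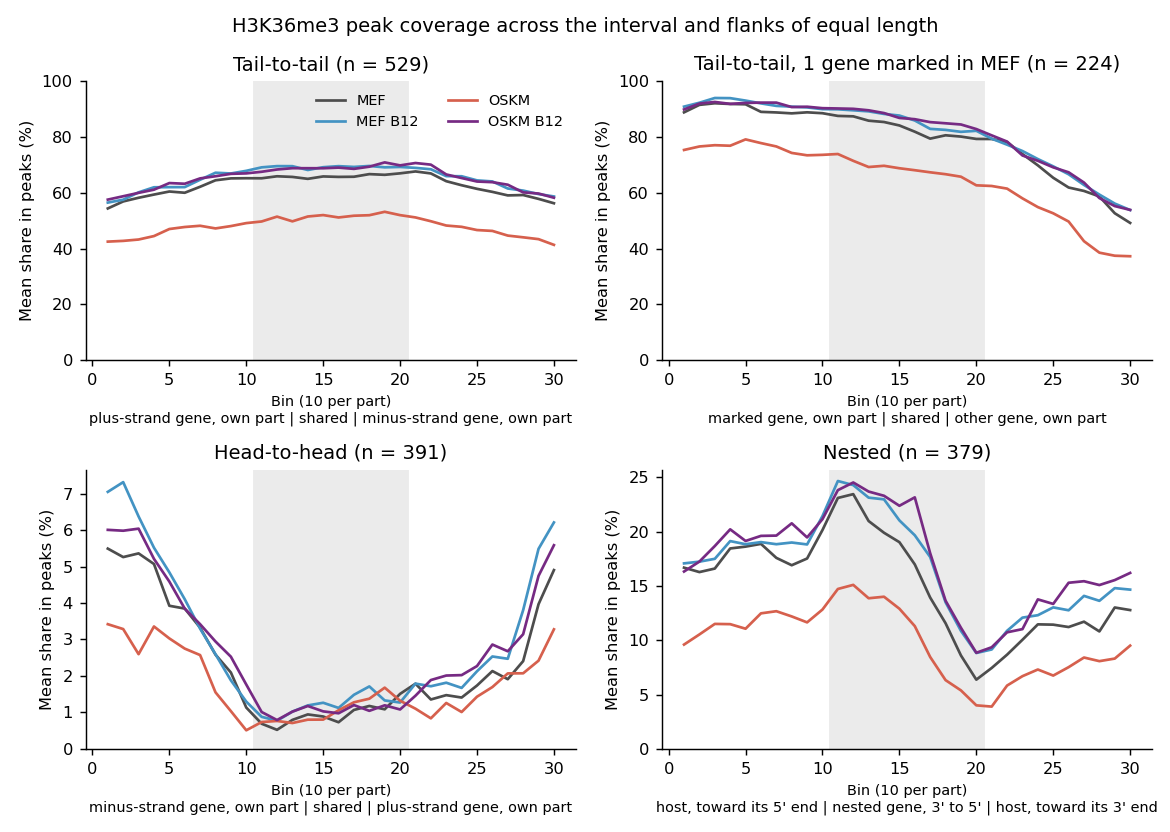
Mean share in peaks (y axis, %, scales differ between panels) in 10 bins of each flank and 10 bins of the shared interval (grey), for pairs with room for flanks of equal length, in the 4 libraries. Tail-to-tail coverage stays near 65% in MEF across the interval and falls from 88.5% to 49.2% where 1 gene is marked, head-to-head coverage stays under 2% in the interval, and nested coverage falls from 23.1% to 6.38% toward the start of the nested gene.

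Among tail-to-tail pairs named by rule, Ercc1/Cd3eap and Thra/Nr1d1 were covered in every library. Ercc1 is a subunit of the endonuclease of nucleotide excision repair and Cd3eap a subunit of RNA polymerase I, and their 511 shared bases (chr7:19356014-19356524, all exonic) were covered over 93.3% in MEF and 100% in MEF B12, against 90.6% in OSKM and 100% in OSKM B12. Thra encodes thyroid hormone receptor alpha and Nr1d1 the circadian repressor REV-ERB alpha. Their 1075 shared bases (chr11:98767932-98769006) were covered over 100%, 100%, 83.3% and 90.5%. In these pairs both genes' own parts were covered over 50.7% to 67.0% in MEF, less than the interval between them.

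The densest tail-to-tail intervals of at least 1000 bases without predicted models were Ptbp1/Plppr3, Slc4a2/Fastk and Pop5/Rnf10. Ptbp1, a splicing regulator, shares 4297 bases (chr10:79860475-79864771) with Plppr3, a lipid phosphatase-related membrane protein. The density there was 1.09 in MEF and 1.17 in MEF B12, next to 0.749 in OSKM and 1.31 in OSKM B12, in pileup per 1000000 tags. Outside the interval Ptbp1 was covered over 64.0% and Plppr3 over 15.7% in MEF. Slc4a2, an anion exchanger, and Fastk, a Fas-activated kinase, had 2511 shared bases with densities of 1.03, 1.21, 0.675 and 1.31, and all of them were in peaks in all 4 libraries. The OSKM value was the lowest and the OSKM B12 value the highest of the 4 in each of these intervals.

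Some overlaps lost their peaks in the OSKM library. The rule named Rtn4/Eml6 and Lipt1/Mitd1 for the largest falls from MEF to OSKM, so the size of their falls is a description. Rtn4 encodes the endoplasmic reticulum protein Nogo and Eml6 a microtubule-associated protein, and their 1284 shared bases (chr11:29743048-29744331, exonic in both genes) were covered over 100% in MEF, MEF B12 and OSKM B12 and at 0 in OSKM. Lipt1, a mitochondrial lipoyltransferase, and Mitd1, which acts in abscission at the end of cell division, shared 1428 bases (chr1:37874801-37876228) covered over 90.9%, 79.1%, 0 and 82.7%. Outside the interval Lipt1 was at 0, 0.0326%, 0 and 0, whereas Mitd1 was covered over 70.9%, 67.0%, 55.6% and 85.4%. Fgf2, a fibroblast growth factor, overlaps Nudt6, a Nudix hydrolase gene, over 5199 bases (chr3:37404910-37410108). These bases were covered over 41.9%, 58.4%, 0 and 39.7%. The rest of both genes was less covered, with Fgf2 at no more than 1.05% in every library and Nudt6 at 5.69%, 12.9%, 0 and 4.05%. Rabgap1/Strbp, among the 3 longest tail-to-tail overlaps with 83227 bases, was covered over 66.8%, 74.0%, 28.2% and 74.5%. Zmat5/Cabp7 (778 bases), named for the largest rise, was covered over 0, 33.4%, 43.1% and 56.9%. Its density was 0.178 in OSKM, the same as in MEF B12, and 0.295 in OSKM B12. The own part of Zmat5 went from 21.7% in MEF to 8.02% in OSKM, and that of Cabp7 from 12.8% to 0.648%. Oprm1/Ipcef1 and Pigk/St6galnac5, the other long overlaps, had no base in a peak in any library, and Oprm1, the mu opioid receptor, had none over its whole span.

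**Figure D4:**
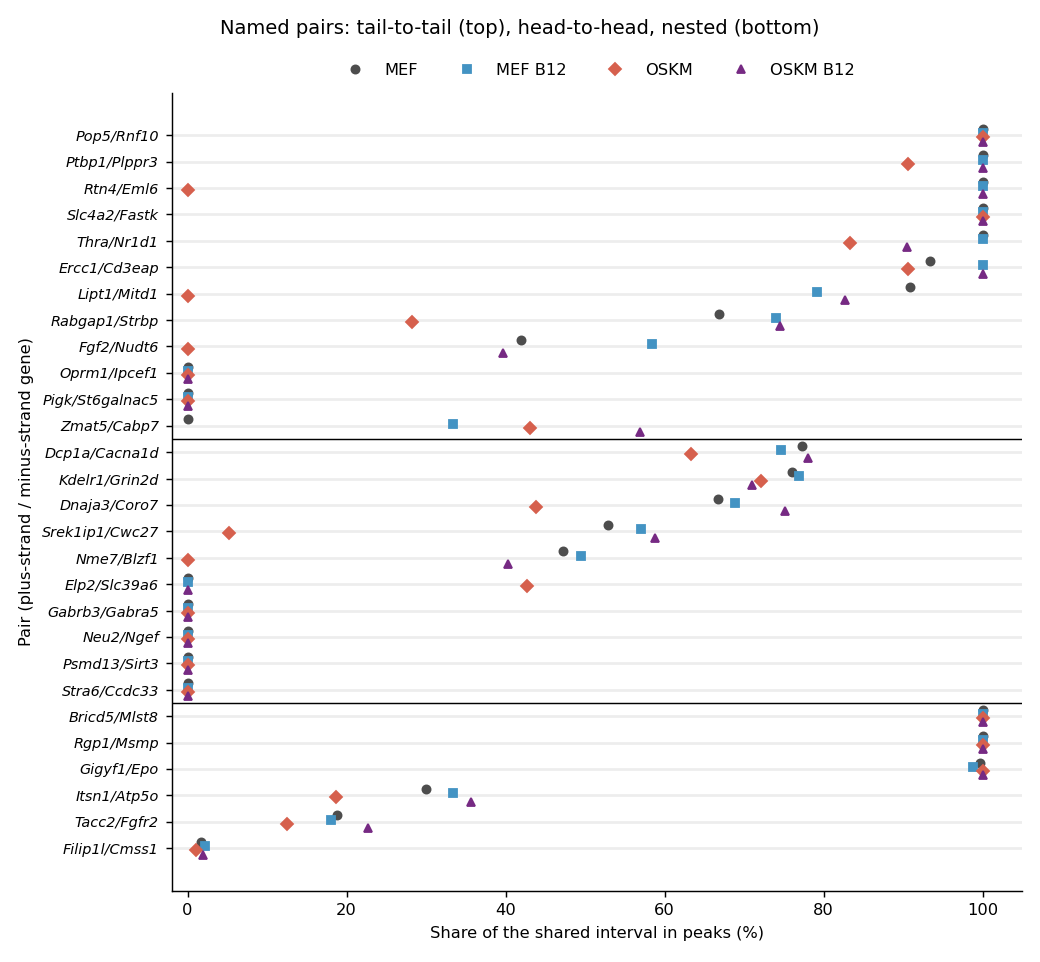
Share of the shared interval in peaks (x axis, %) for 28 named pairs (y axis) in the 4 libraries, 1 symbol per library, with tail-to-tail pairs at the top, head-to-head in the middle and nested at the bottom. Rtn4/Eml6, Lipt1/Mitd1 and Fgf2/Nudt6 sit at 0 in OSKM and between 39.7% and 100% in the other libraries, while Psmd13/Sirt3 sits at 0 in all 4.

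Head-to-head intervals were almost empty. On average 2.38% of their bases lay in peaks in MEF and 2.69% in MEF B12, against 1.71% in OSKM and 2.59% in OSKM B12, although the non-shared parts of the same genes were covered over 34.1%, 36.1%, 23.7% and 36.5%. No base was in a peak in 426 of 457 intervals in MEF, and in 417 none was in any library. At least 50% was covered in 11 intervals in MEF and 12 in MEF B12, next to 6 in OSKM and 12 in OSKM B12, which is 2.41%, 2.63%, 1.31% and 2.63%. Over all gene spans these shares were 22%, 24%, 11.7% and 24.3%. Against adjacent flanks of up to equal length, cut where the gene ended, the difference in MEF was -1.89 percentage points in place of -31.7.

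Head-to-head intervals were also nearly empty where both genes were marked. In 74 pairs both genes were marked in MEF, with own parts covered over 77.0% and 62.9%, and the shared interval was covered over 3.23%, with 3.36%, 4.28% and 3.14% in the other 3 libraries. The first 640 bases of genes in head-to-head pairs were covered over 1.91% in MEF (880 genes) and those of genes with no opposite-strand overlap over 0.878% (16526 genes). Among genes whose rest was at least 50% covered in MEF these windows were at least 50% covered in 5 of 307 head-to-head genes (1.63%, 0.698% to 3.76%) and in 77 of 3626 genes with no overlap (2.12%, 1.70% to 2.65%). The first peak base lay a median of 4202 bases after the annotated start in the 659 head-to-head genes with a peak in MEF and 3960 in MEF B12, beside 5363 in OSKM and 3964 in OSKM B12. In genes with no overlap the medians were 4778, 4458, 5965 and 4340 bases. A peak was present in 72.8% of head-to-head genes and 48.8% of genes with no overlap in MEF.

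The few covered head-to-head intervals were mostly long. In MEF the mean covered share was 0 in the 174 intervals of 200 to 499 bases and 20.7% in the 30 of 10000 bases or more. The 13 intervals at least 50% covered in some library included Dnaja3/Coro7 (39789 bases), Srek1ip1/Cwc27 (24659 bases) and Pde6h/Arhgdib (18068 bases), in which the span of 1 gene reaches far into the other, while Fscn3/Gcc1, with 602 bases and 100% covered in MEF, was a short one. Dcp1a, an mRNA decapping factor, runs for 11921 bases (chr14:30479535-30491455) through the first part of Cacna1d, a voltage-gated calcium channel gene, and the interval was covered over 77.2% in MEF and 74.7% in MEF B12, against 63.4% in OSKM and 78.1% in OSKM B12. The own part of Cacna1d had no base in a peak in any library, while that of Dcp1a was covered over 48.2% to 84.2%. Kdelr1, which returns escaped proteins to the endoplasmic reticulum, and Grin2d, an NMDA receptor subunit, were alike, with 76.0%, 76.9%, 72.1% and 71.0% of 5607 bases covered. The own part of Kdelr1 was covered over 100% in all 4 libraries and that of Grin2d over at most 9.86%. In these long overlaps the bases near 1 gene's start are the body of the other gene.

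A short head-to-head overlap could be empty between covered genes. Psmd13, a proteasome subunit, shares 342 bases (chr7:140881968-140882309) with Sirt3, a mitochondrial deacetylase. The interval was at 0 in all 4 libraries. The own part of Psmd13 was covered over 76.4% in MEF and 77.7% in MEF B12, next to 68.8% in OSKM and 82.1% in OSKM B12, and that of Sirt3 over 47.8%, 47.5%, 25.7% and 43.4%.

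A few head-to-head intervals moved between MEF and OSKM. The rule named Srek1ip1/Cwc27 and Nme7/Blzf1 for the largest falls and Elp2/Slc39a6 for the largest rise, so the size of these changes is a description. Srek1ip1/Cwc27 went from 52.9% in MEF and 57.1% in MEF B12 to 5.25% in OSKM and 58.7% in OSKM B12, and Nme7/Blzf1 (3369 bases) from 47.2% and 49.4% to 0 and 40.2%. Elp2, a subunit of the Elongator complex, and Slc39a6, a zinc transporter, showed the reverse over their 952 shared bases, with 42.6% covered in OSKM and 0 in the other libraries. The OSKM density there was 0.140. The own part of Elp2 went from 92.8% in MEF to 79.8% in OSKM, and that of Slc39a6 from 90.0% to 76.1%. Sugp2/Armc6, with 241 shared bases, was covered over 100% in OSKM and 0 in the other libraries; it was singled out after its values were seen.

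Nested intervals were covered over 19.3% in MEF and 21.6% in MEF B12, beside 12.5% in OSKM and 21.9% in OSKM B12, and the rest of the host gene over 16.7%, 17.8%, 10.5% and 18.2%. The mean difference in MEF was 2.57 percentage points, although the nested interval was the more covered part in 165 pairs, the less covered in 217 and equal in 143. At least 50% was covered in 99 of 525 intervals in MEF (18.9%) and 113 in MEF B12 (21.5%), against 46 in OSKM (8.76%) and 109 in OSKM B12 (20.8%). Over all gene spans these shares were 22%, 24%, 11.7% and 24.3%, slightly above the nested ones in each library. In 258 no base was in a peak in any library.

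The mean hid a pattern within the nested gene. With pairs aligned along the host from its 5′ to its 3′ end, MEF coverage in 379 pairs rose from 16.7% in the outer flank to 23.1% at the near edge of the interval, where the nested gene ends, and fell to 6.38% at the far edge, where the nested gene starts, before recovering to 12.8% downstream. OSKM went from 9.61% to 14.7%, 4.01% and 9.51%. In the 27 pairs with room for flanks whose host was at least 50% covered in MEF, coverage dropped from 73.7% just before the interval to 28.2% at the nested gene's start and returned to 56.6%. In these 27 hosts the body was less covered where a gene on the opposite strand started inside it.

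Nested intervals were more covered in more covered hosts. Where the rest of the host was at least 50% covered in MEF (55 pairs), the nested interval was covered over 48.7%, less than the 66.5% of the host, and was the more covered part in 20 of the 55. Where the host was under 10% covered (270 pairs), the interval was covered over 7.97% and the host over 1.51%. The 346 nested genes lying inside 1 host intron were covered over 16.9% and the rest of their hosts over 13.2%. For the 179 that spanned a host exon these values were 23.8% and 23.4%.

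Of the named nested pairs, Rgp1/Msmp and Bricd5/Mlst8 were covered over 100% in all 4 libraries. Msmp, a gene for a secreted protein, lies inside Rgp1, part of a complex that activates Rab6, and their 1279 shared bases (chr4:43583216-43584494) had densities of 0.830 in MEF and 0.939 in MEF B12, next to 0.550 in OSKM and 0.971 in OSKM B12. Bricd5 lies inside Mlst8, a subunit of the mTOR complexes, over 1586 bases with densities of 0.675, 0.824, 0.571 and 0.907. In Gigyf1/Epo the annotated span of Epo, the erythropoietin gene, encloses Gigyf1, a regulator of translation. The 9388 shared bases were covered over 99.6%, 98.7%, 100% and 100%, and the rest of the Epo span over 8.82%, 10.3%, 8.50% and 12.1%. The longest nested intervals were less covered, at 1.66% in MEF and 1.01% in OSKM in Filip1l/Cmss1 (220034 bases), 18.7% in OSKM to 35.6% in OSKM B12 in Itsn1/Atp5o (191317 bases) and 12.5% in OSKM to 22.7% in OSKM B12 in Tacc2/Fgfr2 (187348 bases).

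Shared and non-shared parts were both less covered in OSKM than in MEF. Over all 1640 intervals the mean covered share in OSKM was 0.748 times that in MEF, and 0.684 times in the non-shared parts. In OSKM B12 it was 1.42 times that in OSKM, and 1.57 times in the non-shared parts. These ratios share the OSKM library, so they are not independent. In MEF B12 it was 1.07 times that in MEF for shared and 1.06 times for non-shared parts. By class, OSKM against MEF gave 0.773 tail-to-tail, 0.721 head-to-head and 0.648 nested, beside 0.699, 0.694 and 0.630 in the non-shared parts. OSKM B12 against OSKM gave 1.35, 1.51 and 1.75, beside 1.53, 1.54 and 1.73 in the non-shared parts. The head-to-head ratios rest on few intervals, as 422 of 457 were at 0 in both MEF and OSKM. Of the 658 tail-to-tail intervals, 154 were wholly covered in both MEF and OSKM and could show no fall in covered share. On density the ratios over all intervals were 0.593, 2.12 and 1.19, beside 0.549, 2.31 and 1.19 in the non-shared parts. With peaks limited to a −log10 q of at least 5, OSKM kept 2169 peaks against 10081 in MEF, and the covered-share ratios became 0.245 for OSKM against MEF and 4.66 for OSKM B12 against OSKM.

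Counts of intervals past a 2-fold difference in density were set beside those over all gene spans, which are whole genes and so unlike features. Of 744 intervals with at least 10% covered in MEF or OSKM, 288 were at least 2 times lower in OSKM (38.7%), beside 44.5% of gene spans, and 20 were at least 2 times higher (2.69%), beside 0.459%. Tail-to-tail intervals were at 168 of 514 (32.7%, 28.8% to 36.9%), head-to-head at 14 of 26 (53.8%, 35.5% to 71.2%) and nested at 106 of 204 (52.0%, 45.1% to 58.7%). From OSKM to OSKM B12, 456 of 767 were at least 2 times higher (59.5%), beside 78.5% of gene spans, with 271 of 523 tail-to-tail (51.8%), 17 of 26 head-to-head (65.4%, 46.2% to 80.6%) and 168 of 218 nested (77.1%), and 13 were at least 2 times lower (1.69%), beside 0.201%. The median log2 differences by class were 0.912, 1.05 and 1.07, beside 0.932, 0.879 and 0.777 in the non-shared parts. For these medians 0.05 was added to each density, which shrinks the log2 of low densities most. Only the shared intervals had to pass the 10% limit, so the medians do not compare shared and non-shared parts on like terms. Without that limit, mean density in OSKM B12 against OSKM gave ratios of 2.06, 2.24 and 2.43 by class. In the non-shared parts these ratios were 2.29, 2.27 and 2.41. From MEF to MEF B12, 63 of 772 were at least 2 times higher (8.16%), beside 3.4% of gene spans, and 15 at least 2 times lower (1.94%), beside 0.779%.

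**Figure D5:**
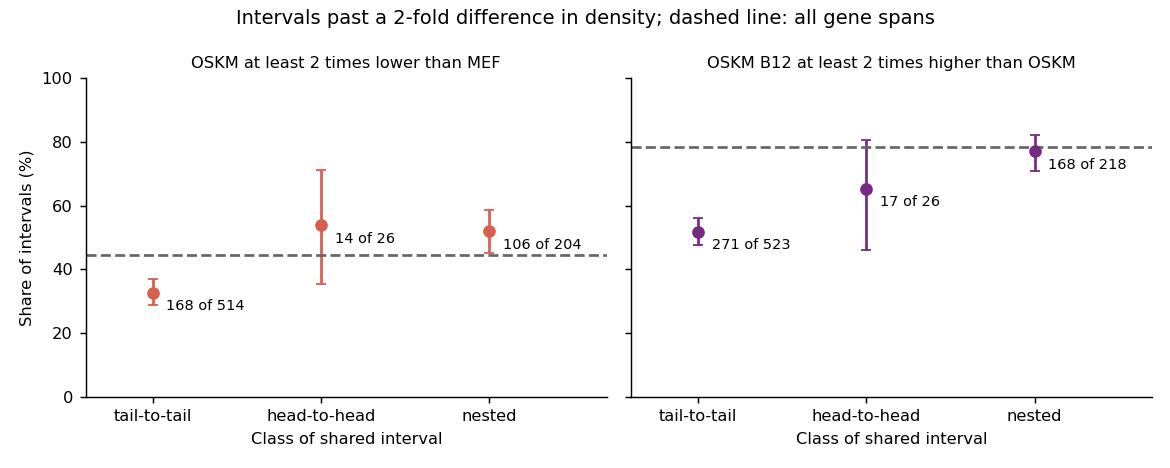
Share of intervals (y axis, %) whose density was at least 2 times lower in OSKM than in MEF (left) or at least 2 times higher in OSKM B12 than in OSKM (right), by class, among intervals with at least 10% covered in 1 of the 2 libraries, with 95% Wilson intervals and the share over all gene spans as a dashed line. Tail-to-tail intervals lie at 32.7% and 51.8%, under the lines at 44.5% and 78.5%, which stand for whole genes and so for unlike features.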

How the data were processed

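The 4 deposited lists hold MACS2 broad peaks, 1 list per H3K36me3 library. The authors aligned reads to mm10 and called peaks against the matched input. The submitters' processing notes name Bowtie 0.12.9 and MACS2 2.2.6, and per the file headers the q-value limits were 0.05 and 0.1, with an effective genome size of 3209286105. The authors' columns used were peak position, pileup (a signal of coverage), fold enrichment (a linear ratio) and −log10 of p and q. Pileup was scaled to 1000000 tags after filtering, and bases outside peaks counted as 0.

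Pairs came from protein-coding gene spans of GENCODE M21. Members and lists were chosen with earlier results of these data known. A pair's covered share is the percent of its bases in peaks. Shares of intervals or genes have 95% Wilson intervals. Named pairs were, without predicted models, known neighbours fixed in a list (6 of 11 were members), then per class the 3 densest of at least 1000 bases, the 3 longest, and the 2 largest falls and 1 rise from MEF to OSKM of at least 500 bases (log2 density, 0.05 added). They were taken in that order up to 30, which left out the last part for nested pairs, and 2 of them are not reported here. Sequence was read from RefSeq's GRCm38.p6 FASTA, the same build as mm10, and AATAAA and ATTAAA were searched on the gene's own strand only. The interval arithmetic was tested on 200 simulated layouts against base-by-base counts, with 1800 of 1800 pairs found and classed alike. Python 3.11.15, numpy 2.4.6, scipy 1.17.1 and matplotlib 3.10.9 were used.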

Additional observations from a re-analysis of the deposited data

How the results depend on the processing

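The share of tail-to-tail intervals at least 50% covered, differences between shared and non-shared parts, ratios between libraries and share inside 1 peak were recomputed under other peak sets, spans, members or weights, and the last windows and one-sided pairs under other peak sets only. The split by partner, 2-fold counts, profiles, first-peak distances, pairs with both genes marked and hexamers have no alternative. With peaks of −log10 q of at least 5 the OSKM to MEF ratio of covered share was 0.245, the OSKM B12 to OSKM ratio 4.66, the head-to-head difference -20.8 percentage points, the share of tail-to-tail intervals at least 50% covered 49.1%, the share inside 1 peak 36.9%, the one-sided pairs with a peak past the far edge 67.9%, and the gap in last windows of weakly covered genes 17.9 percentage points. With all bases pooled the ratios were 0.654 and 1.65 and the differences 23.8 tail-to-tail and -12.2 head-to-head. With density the ratios were 0.593, 2.12 and, for MEF B12 to MEF, 1.19. Against adjacent flanks the differences were 7.41 and -1.89. With peaks up to 1 kb apart merged, 52.3% of tail-to-tail intervals lay inside 1 peak and 66.4% of one-sided pairs had a peak past the far edge. The share inside 1 peak was 51.7% with longest transcript spans, 32.7% for intervals of at least 1000 bases and 50.2% in pairs with at least 10% of both spans covered. The last setting gave 78.6% at least 50% covered and -41.3 head-to-head, and intervals of at least 1000 bases gave -19.6 head-to-head. The cause was not tested. The other 68 recomputed main values stayed within the counting error of the reported value (Wilson intervals, with a mean covered share taken as a share of intervals), and none changed direction. Alternatives for the share at least 50% covered, the last windows and the one-sided pairs were chosen after seeing the data. No paired analysis was possible because no condition has more than 1 library. With no replicate left to omit, the libraries' own spread is unknown.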
